A study of Homo sapiens with 6 samples.

Results

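The 30 genes described here are named for subunits of the nuclear RNA polymerases I, II and III (Pol I, Pol II and Pol III) and were chosen by symbol alone, as every row of a table of 23228 genes whose name starts with POLR1, POLR2 or POLR3 followed by a letter from A to M. They fall into 5 classes by the enzyme that holds the protein: 3 genes of Pol I only, 2 shared by Pol I and Pol III, 5 shared by all 3 enzymes, 10 of Pol II only and 10 of Pol III only. One of the Pol II genes, POLR2J4, is annotated as a long non-coding RNA and was kept there by its symbol. RNA was measured in SaOS-2 cells, a human osteosarcoma line without RB and without p53, into which a doxycycline-inducible vector for the CDK inhibitor p21 had been placed. The p21 OFF group is 3 libraries of such cells left untreated, and the p21 ON group is 3 libraries of such cells that received doxycycline at 1 μg/ml for 24 h. Both groups carry the vector and no library of drug-treated cells without it was analysed here, so the drug and p21 cannot be told apart. The study's text calls its samples biological replicates, and the sample labels number them without naming separate cultures.

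Pol I transcribes the large ribosomal RNA precursor, Pol II transcribes messenger RNAs, and Pol III transcribes transfer RNAs and other short RNAs. Each enzyme has its own pair of large catalytic subunits, and smaller subunits, several of them common to more than one enzyme, complete it. RB is known to bind and restrain factors of Pol I and Pol III, which makes a line without RB a setting of interest for these genes. The libraries hold polyadenylated RNA, so they report the messenger RNAs of the subunits and not the products or the activity of Pol I and Pol III. In bulk RNA scaled between libraries, a change in the total RNA of a cell is not seen, and fewer cells of a type and less RNA per cell cannot be told apart.

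The libraries held 12795490 to 21975045 reads on genes with p21 OFF and 12918390 to 16630552 with p21 ON. CDKN1A, the gene of p21, had 1257, 1187 and 1355 normalized counts with p21 OFF and 40470.4, 43863 and 46739 with p21 ON, a fold change of 34.5, where reads of the vector and of the cells' own gene are counted together. Of 8 markers of the osteoblast lineage, 6 passed the filter on low values, of which IBSP was called lower and the others, among them RUNX2, SP7, ALPL and COL1A1, were called in neither direction, while BGLAP was at 0 and SPP1 under 10 in every library. Of the 3 epithelial markers, 2 passed the filter and were called in neither direction. The 3 summed to 328 to 398 normalized counts with p21 OFF and 317 to 357 with p21 ON. All 3 leukocyte markers stayed under 10 normalized counts on average, as did CDH5 and CDH1, and the endothelial gene VWF was called higher (log2 fold change 0.50). The summed level of the 3 endothelial markers was 62.8 to 69.1 normalized counts with p21 OFF and 73.1 to 105 with p21 ON, and its part in the results was not tested. Gene values leaned with transcript length, most in p21 OFF replicate 1 and p21 ON replicate 1, and the lean differed between the groups. The Spearman correlation of deviation from the gene mean with length was -0.51, -0.14 and 0.022 in p21 OFF replicates 1, 2 and 3. In the p21 ON libraries it was 0.17 to 0.40. By their median, transcripts under 1000 bases lay above their gene mean in all 3 p21 OFF libraries and below it in all 3 p21 ON libraries. The median deviation of transcripts under 1000 bases from their gene mean was 0.24 on the log2 scale in p21 OFF replicate 1 and -0.17 in p21 ON replicate 1, against 0.0043 to 0.062 in the other p21 OFF libraries and -0.071 to -0.063 in the other p21 ON libraries. Results on short transcripts are therefore given with and without those libraries and after removal of a length trend, and the part that this lean has in any result was not tested.

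Among the subunit genes, 6 messenger RNAs fell after p21 induction and none rose. Of the 29 genes that passed the filter, POLR1C, POLR2K, POLR2J, POLR2L, POLR2F and POLR2B were called lower by limma on log2(normalized count + 1), with an adjusted p under 0.05 after Benjamini-Hochberg adjustment over 13255 genes, and 23 were called in neither direction. Without adjustment, 12 lay below and 0 above at a p under 0.05, where 2527 and 2354 of all 13255 genes tested did so. After adjustment, 12.7% of all genes tested were called lower and 10.5% higher. The falls were small, with log2 fold changes from -0.38 to -0.20, and the median over the 29 genes was -0.14 against 0.0056 over all genes tested. In 11 of the 29 genes every p21 ON library lay below every p21 OFF library and in 1, POLR2D, above, where 21.3% and 19.1% of all genes tested did so. Without p21 ON replicate 1 a single subunit gene, POLR1C, was called lower, and over all genes the calls went from 1393 higher and 1681 lower to 695 and 887. Without p21 ON replicate 3 the calls over all genes were 739 and 1077 and those among the subunits 4, and scaling by library size alone gave 2034 and 1194 over all genes and 4 lower subunits. Without both libraries numbered 1, an alternative chosen after seeing the data, 2 subunit genes were called lower, POLR1C and POLR2B, of 906 genes higher and 1087 lower.

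**Figure D1:**
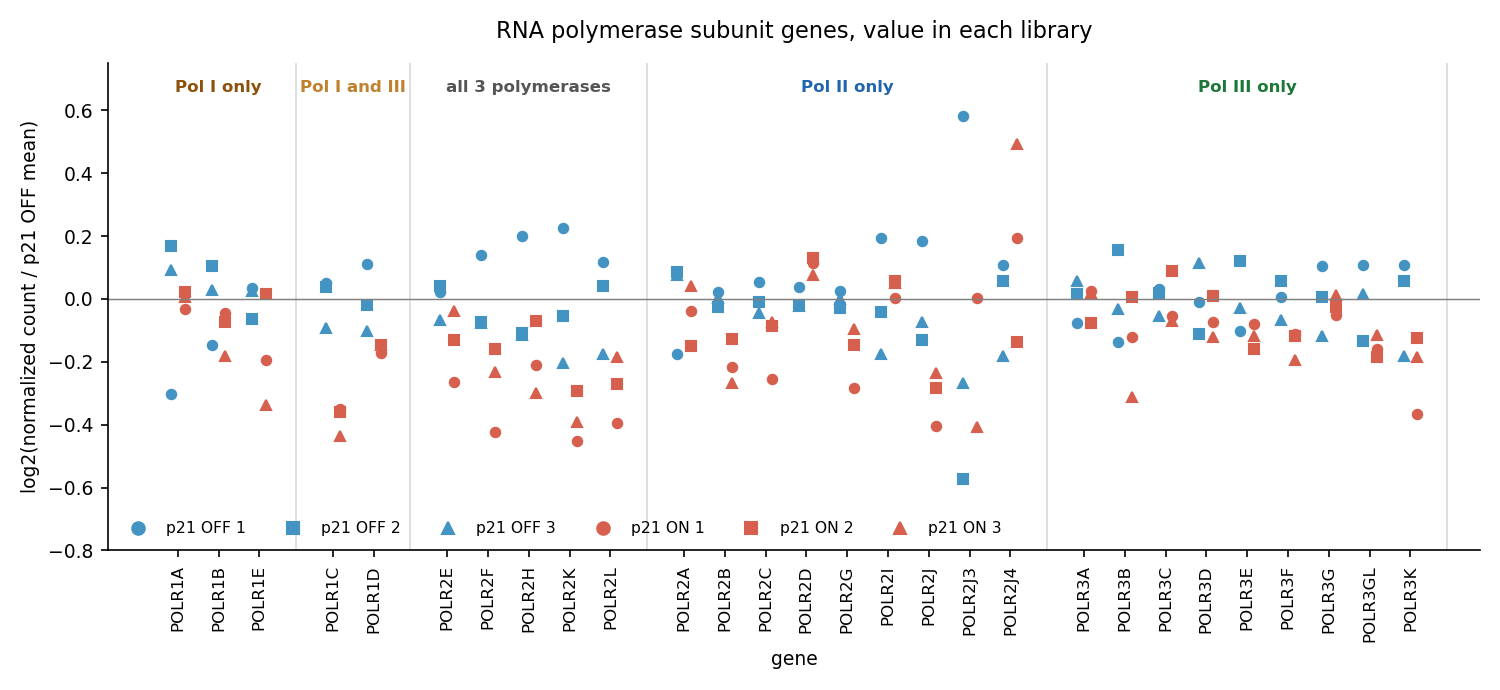
Each point is a subunit gene in a library, as the log2 of its normalized count over the mean of the 3 p21 OFF libraries, for 28 of the 29 genes that passed the filter, in blue for p21 OFF and red for p21 ON, with a circle, square or triangle for replicate 1, 2 or 3. The red points of POLR1C lie clear of the blue ones, those of POLR1A, POLR2A and POLR3A lie among them, and POLR2J3, the least expressed gene shown, spreads widest.

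By class, the 7 shared subunits held 4 of the 6 falls, 1 of 2 in the Pol I and Pol III class and 3 of 5 among those common to all 3 enzymes, with a median log2 fold change of -0.27. Over all genes tested 12.7% were called lower. Without p21 ON replicate 1 none of the 5 common to all 3 enzymes was called, and without both libraries numbered 1 their median was -0.12 and none was called. Among the subunits of a single enzyme 2 of 22 were called lower, both in Pol II (2 of 9), while 0 of 3 Pol I and 0 of 10 Pol III subunits were called in either direction, and at an unadjusted p under 0.05 none of the former and 2 of the latter were lower. The median log2 fold changes of the single-enzyme classes lay close together, at -0.096 for Pol I, -0.14 for Pol II and -0.13 for Pol III. With each shared subunit counted in every enzyme it belongs to, 4 of 10 Pol I, 5 of 14 Pol II and 4 of 17 Pol III subunits were lower. Class and transcript length ran together. The median length was 1275 bases for the shared subunits, 3735 for those of 1 enzyme and 7527 for Pol I only. With the length trend taken out the median log2 fold change was -0.13 for the shared subunits and -0.097 for those of 1 enzyme. Subunits are not replicates of an enzyme, so the difference between classes was not tested.

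**Figure D2:**
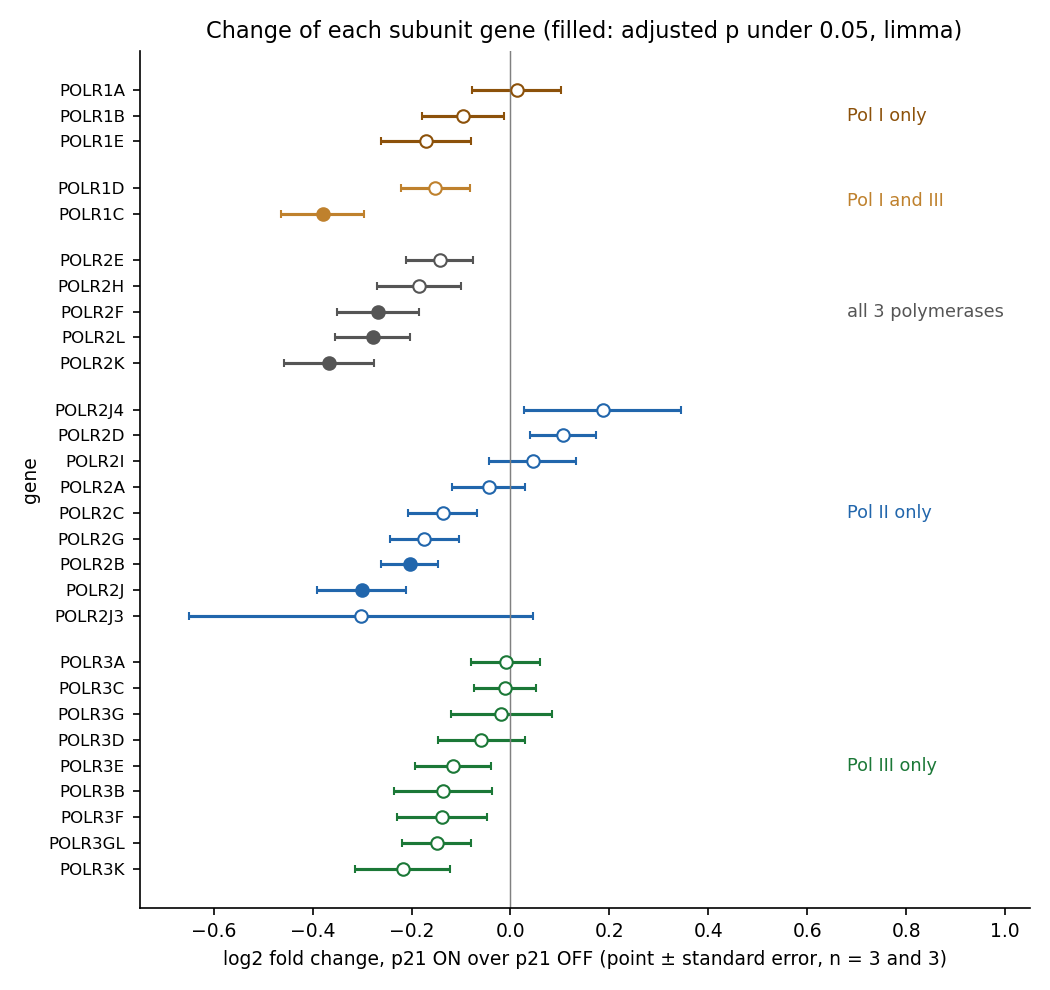
Each point is the log2 fold change of 1 of 28 subunit genes, p21 ON over p21 OFF, with its standard error as a bar (n = 3 and 3), grouped by the enzymes that hold the protein and filled where the adjusted p from limma was under 0.05. The 6 filled points all lie left of 0, 4 of them in the shared classes, and all points of Pol III only are open.

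POLR1C and POLR1D encode the pair of subunits on which Pol I and Pol III are assembled, and mutations in either gene cause Treacher Collins syndrome, a disorder of facial bone. POLR1C, on chromosome 6 from 43477440 to 43530156 on the plus strand of GRCh37, had 389, 385 and 352 normalized counts with p21 OFF and 295, 292 and 277 with p21 ON. The groups did not overlap, and the lowest p21 OFF library was well above the highest p21 ON library. Its mean went from 375 ± 20.5 to 288 ± 9.30 normalized counts (n = 3 each, ± SD), for a log2 fold change of -0.38 (limma, standard error 0.084 and adjusted p 0.00384). This was the only subunit gene called lower under each of the 14 alternative fits and with each of the 6 libraries left out. The log2 fold change of POLR1C ran from -0.43 to -0.35 with single libraries left out and was -0.34 under scaling by library size alone and -0.25 with the length trend taken out (limma adjusted p = 0.0278). Exons of POLR1C overlap those of XPO5, YIPF3 and LRRC73 on the opposite strand, as do those of POLR2B with IGFBP7, POLR2J with LRWD1 and POLR2L with CD151, and the strand setting of the counting is not given in the sources used here. POLR1D had 1135, 1036 and 979 normalized counts with p21 OFF and 932, 949 and 948 with p21 ON. Its p21 ON libraries also lay wholly below, but its log2 fold change of -0.15 did not pass the threshold (limma adjusted p = 0.12) and became 0.054 with the length trend taken out. The stretch of the POLR1C promoter that holds no annotated exon is printed because this is the fall that every fit called. It lies within the 150 bases upstream of the start of the canonical transcript, at chr6:43484724-43484791 of GRCh37 on the plus strand, and capitals mark the GC box GGGCGG, while the ETS core motif CCGGAAG of this promoter lies outside the stretch.
POLR1C: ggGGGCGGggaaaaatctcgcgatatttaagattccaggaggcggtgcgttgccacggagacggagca

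The 5 subunits common to all 3 enzymes all had negative log2 fold changes, and 3 of them passed the threshold. POLR2K, a small zinc-binding subunit encoded on chromosome 8 from 101162851 to 101166231 on the plus strand, had 1017, 837 and 755 normalized counts with p21 OFF and 636, 710.4 and 663 with p21 ON. The groups did not overlap, and p21 OFF replicate 1 stood above the other p21 OFF libraries. It fell by 0.37 on the log2 scale (limma, standard error 0.091 and adjusted p 0.00817), and without p21 ON replicate 1 the log2 fold change was -0.33 and the adjusted p 0.0548. Without both libraries numbered 1 its log2 fold change was -0.21 (limma adjusted p = 0.0704). With the length trend taken out it was -0.20 (limma adjusted p = 0.0384).

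POLR2F, a subunit near the clamp of each enzyme encoded on chromosome 22 from 38348614 to 38437922 on the plus strand, had 926, 798 and 796 normalized counts with p21 OFF and 626, 752 and 715 with p21 ON. All 3 p21 ON libraries lay below, with p21 OFF replicate 1 the highest and p21 ON replicate 1 the lowest of the 6. Its log2 fold change of -0.27 (limma, standard error 0.083 and adjusted p 0.026) was -0.20 without p21 OFF replicate 1 (adjusted p = 0.0534), -0.19 without p21 ON replicate 1 (adjusted p = 0.174) and -0.29 without p21 ON replicate 3 (adjusted p = 0.0676). Without both libraries numbered 1 it was -0.12 (limma adjusted p = 0.309), and under scaling by library size alone -0.22 (adjusted p = 0.0575). POLR2F shares exonic positions with SOX10 on the opposite strand. POLR2E and POLR2H, also common to all 3 enzymes, had log2 fold changes of -0.14 and -0.18 with overlapping groups and adjusted p of 0.136 and 0.125 from limma. POLR2E was called lower in a single alternative, with a trend with GC content taken out (-0.17, limma adjusted p = 0.0478).

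POLR2L, which sits with POLR2K at the assembly platform and lies on chromosome 11 from 837356 to 842529 on the minus strand, had 2595, 2465 and 2121 normalized counts with p21 OFF and 1821, 1985 and 2104 with p21 ON. The groups lay next to each other without overlap, the lowest p21 OFF library just above the highest p21 ON library. Its log2 fold change was -0.28 (limma, standard error 0.076 and adjusted p 0.0138), -0.22 without p21 ON replicate 1 (adjusted p = 0.104), -0.16 without both libraries numbered 1 (adjusted p = 0.112) and -0.10 with the length trend taken out (adjusted p = 0.201). The 150 bases upstream of POLR2L, at chr11:842530-842679 of GRCh37 on the minus strand, are printed for comparison with POLR1C with its GC box in capitals, and hold no ETS core motif.
POLR2L: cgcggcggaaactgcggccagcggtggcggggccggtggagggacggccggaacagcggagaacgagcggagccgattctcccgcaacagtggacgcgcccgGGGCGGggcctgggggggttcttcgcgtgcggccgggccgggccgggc

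Within Pol II, the second-largest subunit and a small assembly subunit fell, while the largest subunit did not pass the threshold. POLR2A, which carries the catalytic site and the long repeat tail that couples transcription to RNA processing, had 14575, 17458 and 17364 normalized counts with p21 OFF and 16023, 14860.3 and 16945 with p21 ON. The groups overlapped, and its log2 fold change was -0.044 (limma, standard error 0.074 and adjusted p 0.703), with a sign that changed under scaling by library size alone. POLR2B, which forms the catalytic cleft with POLR2A and lies on chromosome 4 from 57843888 to 57897324 on the plus strand, had 4889, 4724 and 4824 normalized counts with p21 OFF and 4139.7, 4404 and 3999.6 with p21 ON. Here the groups were apart, and the p21 OFF libraries differed little among themselves. POLR2B fell, its mean going from 4812 ± 83.5 to 4181 ± 205 normalized counts (n = 3 each, ± SD), by 0.20 on the log2 scale (limma, standard error 0.058 and adjusted p 0.0176). The call was lost without p21 ON replicate 1 (-0.20, adjusted p = 0.0854), without p21 ON replicate 3 (-0.17, adjusted p = 0.0892) and under scaling by library size alone (-0.16, adjusted p = 0.0533). It held without both libraries numbered 1 (-0.19, adjusted p = 0.0367) and with the length trend taken out (-0.22, adjusted p = 0.00258).

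POLR2C and POLR2J form the Pol II counterpart of the POLR1C and POLR1D pair. POLR2J, on chromosome 7 from 102113575 to 102119369 on the minus strand, had 573, 460.1 and 479 normalized counts with p21 OFF and 381, 414 and 428 with p21 ON. The groups did not overlap, and p21 OFF replicate 1 stood highest. POLR2J fell by 0.30 on the log2 scale (limma, standard error 0.090 and adjusted p 0.0222). Its log2 fold change was -0.21 without p21 OFF replicate 1 (adjusted p = 0.0707), -0.25 without p21 ON replicate 1 (adjusted p = 0.123), -0.16 without both (adjusted p = 0.249) and -0.13 with the length trend taken out (adjusted p = 0.201). POLR2C had a log2 fold change of -0.14 (limma adjusted p = 0.158) with all p21 ON libraries below.

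POLR2J has near-copies on the same chromosome, POLR2J2, POLR2J3 and POLR2J4, and reads that fit several of them could be lost or split, so their values are uncertain. POLR2J2 ranged from 0 to 2.33 normalized counts and was the only gene of the 30 not tested. POLR2J3 had 22.6, 10.2 and 12.6 normalized counts with p21 OFF and 15.1, 8.53 and 11.4 with p21 ON, and its log2 fold change of -0.30 had a standard error of 0.35. POLR2J4, the long non-coding member, had a log2 fold change of 0.19 (limma, standard error 0.16 and adjusted p 0.422), of opposite sign to POLR2J. The copies share sequence before their starts as well, which is why these promoters are printed: over 124 aligned positions 119, or 96.0%, were the same letter. The POLR2J stretch is chr7:102119370-102119519 and the POLR2J4 stretch chr7:44058775-44058898, both of GRCh37 on the minus strand, and capitals mark the ETS core motif CCGGAAG, which both keep.
POLR2J: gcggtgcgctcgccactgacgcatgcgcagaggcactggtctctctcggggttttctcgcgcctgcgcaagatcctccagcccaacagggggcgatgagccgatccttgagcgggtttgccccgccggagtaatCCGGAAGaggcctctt
POLR2J4: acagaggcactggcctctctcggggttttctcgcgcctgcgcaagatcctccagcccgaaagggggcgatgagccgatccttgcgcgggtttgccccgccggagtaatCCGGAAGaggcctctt

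The other Pol II subunits were called in neither direction. POLR2D and POLR2G form the stalk of the enzyme, and their log2 fold changes differed in sign, 0.11 for POLR2D (limma adjusted p = 0.258) and -0.17 for POLR2G (adjusted p = 0.079). POLR2D was the 1 subunit gene with all p21 ON libraries above, at 793, 801 and 772 against 752, 723 and 721 normalized counts, and POLR2G had all of them below. POLR2G was called lower with the GC trend taken out (-0.18, limma adjusted p = 0.04997) and had a log2 fold change of 0.016 with the length trend taken out. POLR2I, a subunit with a part in transcript cleavage and proofreading, had a log2 fold change of 0.045 with overlapping groups. It is the shortest transcript of the 29, at 443 bases, and with the length trend taken out it was the 1 subunit gene called higher (0.30, limma adjusted p = 0.00268). POLR2I shares exonic positions with TBCB and OVOL3 on the opposite strand.

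The subunits of Pol I only were called in neither direction, whereas their spread between replicates was large for the catalytic one. POLR1A, the largest subunit, had 1528, 2116 and 2009 normalized counts with p21 OFF and 1842, 1914 and 1893 with p21 ON. The p21 ON values lay inside the p21 OFF range, whose lowest library was p21 OFF replicate 1. Its log2 fold change was 0.013 (limma, standard error 0.090 and adjusted p 0.935) and -0.13 without p21 OFF replicate 1. POLR1A is the longest transcript of the 29, at 12480 bases, and with the length trend taken out it was called lower (-0.18, adjusted p = 0.0326), as was POLR1B, the second-largest subunit (-0.20, adjusted p = 0.0435). With that trend left in, the value of POLR1B was -0.096 (limma adjusted p = 0.432). POLR1E, part of a pair that stimulates the enzyme, had -0.17 (limma adjusted p = 0.18). Its groups overlapped through a single library, p21 ON replicate 2.

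None of the 10 subunits of Pol III only passed the threshold, although all 10 log2 fold changes were below 0, from -0.22 to -0.0098, except that under scaling by library size alone POLR3A, POLR3C and POLR3G lay above 0. POLR3A, the largest subunit, had 691, 735 and 757 normalized counts with p21 OFF and 740.4, 689.6 and 737 with p21 ON, ranges that overlapped almost wholly. Its log2 fold change was -0.0098 (limma, standard error 0.070 and adjusted p 0.936). POLR3B, which completes the catalytic cleft, had -0.14 with a standard error of 0.099. POLR3K, a subunit needed for termination and the shortening of transcripts, had the lowest value of the class, -0.22 (limma adjusted p = 0.107), and was called lower only without p21 OFF replicate 3 (-0.31, adjusted p = 0.0317). Of the pair POLR3D and POLR3E, which acts in initiation and termination, POLR3D had -0.059 and POLR3E -0.12. POLR3F had -0.14 with all p21 ON libraries below. POLR3F, POLR3C and either POLR3G or POLR3GL form the trio that meets the initiation factors, and POLR3C had -0.011.

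POLR3G and POLR3GL are alternative subunits of the same place in Pol III, POLR3G being known as the form enriched in stem cells and tumour cells. POLR3G had 193, 180.4 and 166 normalized counts with p21 OFF and 173, 177 and 181 with p21 ON. POLR3GL had 1330.0, 1123 and 1246 and 1105, 1084 and 1139. The groups overlapped for both genes, with log2 fold changes of -0.018 for POLR3G (limma adjusted p = 0.917) and -0.15 for POLR3GL (adjusted p = 0.132). The POLR3G count was 0.13 to 0.16 of the POLR3GL count in each library, and per 1000 bases of transcript POLR3GL stood at 1047 ± 88.3 against 54.7 ± 4.23 for POLR3G with p21 OFF (SD, n = 3 each). The log2 ratio of POLR3G to POLR3GL was -2.78 ± 0.14 with p21 OFF and -2.65 ± 0.027 with p21 ON (SD, n = 3 each), a difference of 0.13 that was smaller than the p21 OFF spread (exact two-sided permutation test, p = 0.3, where 0.1 is the smallest that 3 against 3 allow). With single libraries left out this difference ran from 0.064 to 0.20, the lowest without p21 OFF replicate 3 and the highest without p21 OFF replicate 2. The transcripts differ in length, 3290 bases for POLR3G and 1178 for POLR3GL. With the length trend taken out their log2 fold changes were -0.018 and -0.0092. Exons of POLR3GL overlap those of an unnamed gene on the same strand, and exons of POLR3G those of MBLAC2 on the opposite strand. The part of these overlaps in the counts and their ratio was not tested.

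The ratios among the largest subunits of the 3 enzymes differed between the groups by less than the spread between libraries. A ratio taken within a library does not depend on how libraries are scaled. It can depend on the lean with length, since POLR1A has 12480 bases, POLR2A 6304 and POLR3A 6610. With the length trend taken out their log2 fold changes were -0.18, -0.12 and -0.095, and the ratios themselves were not tested in that setting. The log2 ratio of POLR1A to POLR2A was -3.14 ± 0.11 with p21 OFF and -3.08 ± 0.11 with p21 ON (SD, n = 3 each), a difference of 0.056. The differences were 0.034 for POLR3A to POLR2A and 0.023 for POLR1A to POLR3A. All 3 had overlapping groups, with exact two-sided permutation p of 0.6, 0.7 and 0.9 and an adjusted p of 0.9 for each over the 3 ratios. With single libraries left out, the differences ran from -0.0052 to 0.10, from -0.0030 to 0.082 and from -0.084 to 0.11, so that each changed sign. Since 0.1 is the smallest value this exact test can give, it could not have passed 0.05 for any of the ratios.

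**Figure D3:**
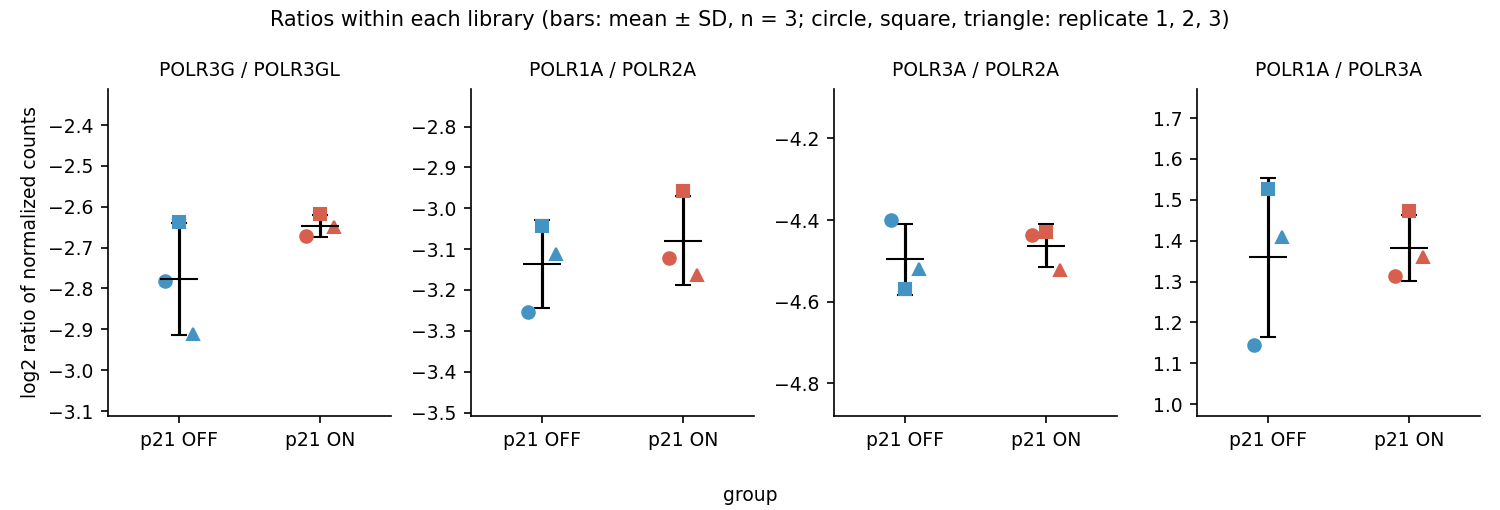
Each panel gives a log2 ratio of normalized counts of 2 subunit genes within each library, with p21 OFF in blue, p21 ON in red, the replicates as circle, square and triangle, and the mean and SD as bars (n = 3). The groups overlap in all 4 panels, and the axes span the same range of log2 units without starting at a common value.

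Levels of different subunits can be compared only per length, here as normalized counts per 1000 bases of the canonical transcript. On that scale POLR2L had 2732 ± 279.7 and POLR2A 2612 ± 259.9 with p21 OFF (SD, n = 3 each), the highest levels of the 30 genes and within each other's spread. They were followed by POLR1D with 1515 ± 114, POLR2B with 1271 ± 22.1, POLR2I with 1168 ± 153 and POLR2G with 1144 ± 21.8. POLR2I did not differ from POLR2B or POLR2G beyond its spread. The largest subunits of Pol I and Pol III stood far lower, POLR1A at 151 ± 25.1 and POLR3A at 110.1 ± 5.10. Among the genes free of near-copies POLR3G, at 54.7 ± 4.23, was the lowest and POLR3D, at 63.8 ± 5.01, and POLR1B, at 64.1 ± 5.67, came next with overlapping spread. In p21 ON libraries POLR2L had 2249 ± 162 and POLR2A 2529 ± 166.

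The log2 fold changes of the subunit genes varied with the length of their transcripts, as did those of all genes. Over the 29 subunit genes the Spearman correlation of the log2 fold change with the length of the canonical transcript was 0.65, and over the 12611 tested genes with a known length it was 0.36. Both are descriptions across genes, which share the 6 libraries. Of the 7 subunit genes with transcripts under 1000 bases 3 were called lower, of the 6 from 1000 to 2000 bases 1, of the 7 from 2000 to 4000 bases 2, and of the 9 from 4000 bases none. Over all genes in the same ranges 35.8%, 22.2%, 13.0% and 6.13% were called lower. The medians of the subunit genes in those ranges, -0.28, -0.18, -0.14 and -0.044, each lay below the median of all genes of similar length, which was -0.19, -0.10, -0.020 and 0.080. Of the 7 subunit genes under 1000 bases, POLR2I alone had a log2 fold change above 0.

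**Figure D4:**
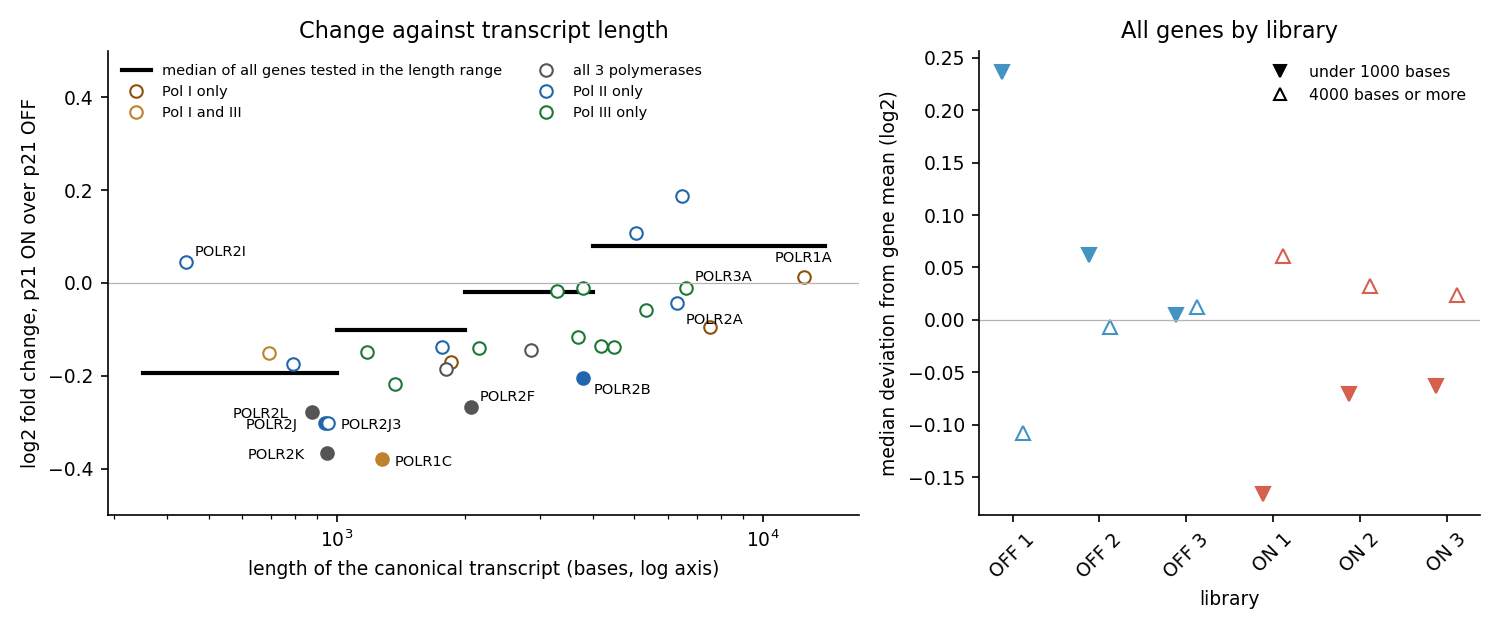
On the left each circle is a subunit gene by transcript length (log axis) and log2 fold change, filled where called by limma, and black lines are the medians of all genes tested in 4 length ranges. On the right is the median deviation from the gene mean of short and long transcripts over all genes in each library, widest apart in p21 OFF replicate 1 (0.24 and -0.11) and p21 ON replicate 1 (-0.17 and 0.061).

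With a trend with length taken out of every library, 6 subunit genes were called lower and 1 higher, and over all genes 13% and 10.6%. The 6 were POLR1A, POLR1B, POLR1C, POLR2B, POLR2F and POLR2K, so that 4 of the earlier calls were made again and POLR2J and POLR2L were not, while both large subunits of Pol I were added. The class medians also changed order, to -0.18 for Pol I only, -0.13 for all 3 enzymes, -0.098 for Pol I and Pol III, -0.097 for Pol III only and -0.050 for Pol II only. The order of the enzymes by median thus turned with the treatment of length, and it also turned without both libraries numbered 1, where Pol I only had a median of -0.14, Pol II only -0.11 and Pol III only -0.084. In both settings 24 of the 29 log2 fold changes were negative, against 25 in the fit without them, and the medians over all 29 were -0.10 and -0.11.

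Promoters were searched for motifs in the 150 bases upstream of the start of the canonical transcript, on both strands, in 12611 genes. The CHR element, searched as TTTGAA or TTCGAA, and E2F sites, searched as TTTCCCGC, TTTGGCGC, TTTCGCGC or TTTGCCGC, are the elements through which DREAM and E2F complexes act on cell cycle genes. A CHR match was present in 4.34% of all promoters and in 10.3% of those of genes called lower. Among the 29 subunit genes tested it was in 1, POLR1A, and an E2F match, in 2.81% of all promoters, was in 1, POLR2A. Neither was in any of the 6 subunit genes called lower, where 10.3% and 3.63% of all genes called lower held them. With shares that small, 6 genes are too few for a comparison. The ETS core CCGGAAG was in 13.1% of all promoters and in 9 of 29 subunit promoters (31.0%), among them POLR1B, POLR1C, POLR2F, POLR2J, POLR2J4 and POLR3A. In POLR2J it starts 16 bases before the transcript and in POLR2J4 42 bases, and 3 of the 6 subunit genes called lower hold it, where 18.8% of all genes called lower do. The GC box GGGCGG was in 64.1% of all promoters and 22 of 29, CCAAT in 27.2% and 6 of 29, the YY1 core AAGATGGC in 1.18% and 1 of 29, POLR3D, and TATAAA in 3.25% and 0 of 29. The search did not leave out annotated exons, which cover the whole windows of POLR1A and POLR1B, among others. A match says only that these letters lie in the window.

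Another 4 genes of the table encode subunits under other symbols and were described apart: CD3EAP, TWISTNB and ZNRD1 of Pol I and CRCP of Pol III. None was called, where 12.7% of all genes tested were called lower and 10.5% higher. At an unadjusted p under 0.05 by limma 2 were lower, where 2527 of all 13255 genes tested were. By edgeR and DESeq2 on the recovered reads none was called. CD3EAP, the partner of POLR1E, had a log2 fold change of 0.062, and CRCP had -0.0091. TWISTNB, a stalk subunit of Pol I, had -0.22 (limma adjusted p = 0.0812) and was called lower without p21 OFF replicate 1 (-0.25, adjusted p = 0.0238), without p21 ON replicate 2 (-0.30, adjusted p = 0.0285) and with the length trend taken out (-0.23, adjusted p = 0.0357). ZNRD1, which has a part in transcript cleavage, had -0.26 (limma adjusted p = 0.0925) and was called lower without p21 OFF replicate 3 (-0.33, adjusted p = 0.0459). With these genes, 0 of 6 subunits of Pol I only and 0 of 11 of Pol III only were called.

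Genes of the factors that work with the enzymes were described in the same way. Over 8 lists with 129 genes tested, 28 were called lower and 1 higher, with a median log2 fold change of -0.11, where 12.7% and 10.5% of all genes tested were called lower and higher. Without p21 ON replicate 1 or 3 the number lower was 12 or 13, and scaling by library size alone gave 16 lower and 6 higher. With the length trend taken out 28 were lower and 2 higher, but these were not all the same genes. MED10, MED19, MED27, CCNC, GTF2A2, GTF3C5, TAF11 and RUVBL1 lost their call. UBTF, GTF2H5, GTF3C4, TAF8, MED17, MED28, CDK19 and RPAP2 were called lower instead, and TAF1D was called higher beside MED12L.

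Of the 7 Pol I factors 2 were called lower and none higher, with a median of -0.28. RRN3, the factor that makes Pol I competent to initiate, had 487, 485 and 431 normalized counts with p21 OFF and 398, 385 and 348 with p21 ON. Its groups were apart, and its log2 fold change was -0.31 (limma, standard error 0.085 and adjusted p 0.0138). TTF1, the transcription termination factor of Pol I, fell by 0.33 (limma, standard error 0.076 and adjusted p 0.00515). The count was 1 without p21 OFF replicate 2 and 1 without p21 ON replicate 3. UBTF, which keeps ribosomal gene chromatin open, did not pass the threshold (-0.12). With the length trend taken out UBTF was called lower (-0.16, limma adjusted p = 0.0161) and TAF1D was called higher.

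Of the 16 Pol III factors 3 were called lower and none higher, with a median of -0.13. MAF1, the repressor of Pol III, had 3626, 3607 and 3469 normalized counts with p21 OFF and 2697, 2754 and 3038 with p21 ON. All p21 ON libraries lay below, and the log2 fold change was -0.34 (limma, standard error 0.061 and adjusted p 0.000861). GTF3C2 and GTF3C5, subunits of the factor that recognises transfer RNA genes, had log2 fold changes of -0.33 (adjusted p = 0.00149) and -0.17 (adjusted p = 0.0454). GTF3C5 was called in 2 of the 6 fits that left out a single library and not with the length trend taken out (-0.11, limma adjusted p = 0.105), by edgeR or by DESeq2, while MAF1 and GTF3C2 were called in all of these. MAF1 shares exonic positions with SHARPIN on the opposite strand, and of the other factor genes named with values UBTF, GTF3C2, TAF5, TAF9, TAF10, MED12L, SUPT4H1, PAF1, LEO1, GPN1 and GPN3 also overlap exons of opposite-strand genes.

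Of the 18 general factors of Pol II 2 were called lower, GTF2B, which places the enzyme at the start site, with -0.28 (limma adjusted p = 0.00939), and GTF2A2, a subunit of the factor that steadies TBP on DNA, with -0.27 (adjusted p = 0.0231). The median was -0.10. The count was 0 without p21 ON replicate 1 or 3, and 1 without p21 OFF replicate 1, p21 OFF replicate 2 or p21 ON replicate 2. Of 15 TFIID subunits 4 were called lower and none higher, with a median of -0.13. TAF5, a scaffold subunit of TFIID, had 291, 288 and 279 normalized counts with p21 OFF and 201, 172 and 201 with p21 ON. Its groups were far apart for these lists, with a log2 fold change of -0.58 (limma, standard error 0.096 and adjusted p 0.00032). TAF10 had -0.36 (adjusted p = 0.00295) and TAF9 -0.30 (adjusted p = 0.00376).

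Mediator, the complex that links activators to Pol II, held 1 gene called higher and 8 called lower of 33, with a median of -0.11. MED12L, a paralogue of the kinase-module subunit MED12, rose, its mean going from 464 ± 58.9 to 663 ± 41.4 normalized counts (n = 3 each, ± SD), for a log2 fold change of 0.52 (limma adjusted p = 0.000553). MED30 had -0.50 (adjusted p = 0.00179) and MED6 -0.41 (adjusted p = 0.0155). The number lower was 4 without p21 OFF replicate 2, 1 without p21 ON replicate 1 and 2 without p21 ON replicate 3, and the number higher was 2 without p21 OFF replicate 2 or 3. Of 25 elongation factors 4 were called lower and none higher, with a median of -0.075. SUPT4H1, a partner in the DSIF complex that keeps Pol II processive, had -0.42 (limma adjusted p = 0.000589), and PAF1 and LEO1, members of one complex on the elongating enzyme, had -0.24 (adjusted p = 0.00685) and -0.24 (adjusted p = 0.0183). The number lower was 1 without p21 ON replicate 1 and 2 without p21 ON replicate 3, and the number higher 1 without p21 OFF replicate 2 and 2 without p21 OFF replicate 3.

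Of 10 genes for the assembly and nuclear import of the polymerases 4 were called lower and none higher, with a median of -0.13. GPN3, a small GTPase needed for the nuclear import of Pol II, had 189.6, 192 and 205 normalized counts with p21 OFF and 126, 135 and 121 with p21 ON. The highest p21 ON library lay well below the lowest p21 OFF library, and the log2 fold change was -0.62 (limma, standard error 0.11 and adjusted p 0.000447). GPN1, its partner, had -0.26 (adjusted p = 0.0159), and RUVBL2, an ATPase of the chaperone that assembles the enzymes, -0.38 (adjusted p = 0.000265). The number lower was 2 without p21 ON replicate 1 or 3. GPN3 and RUVBL2 were also called with the length trend taken out (-0.51, adjusted p = 0.00164, and -0.27, adjusted p = 0.000283).

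**Figure D5:**
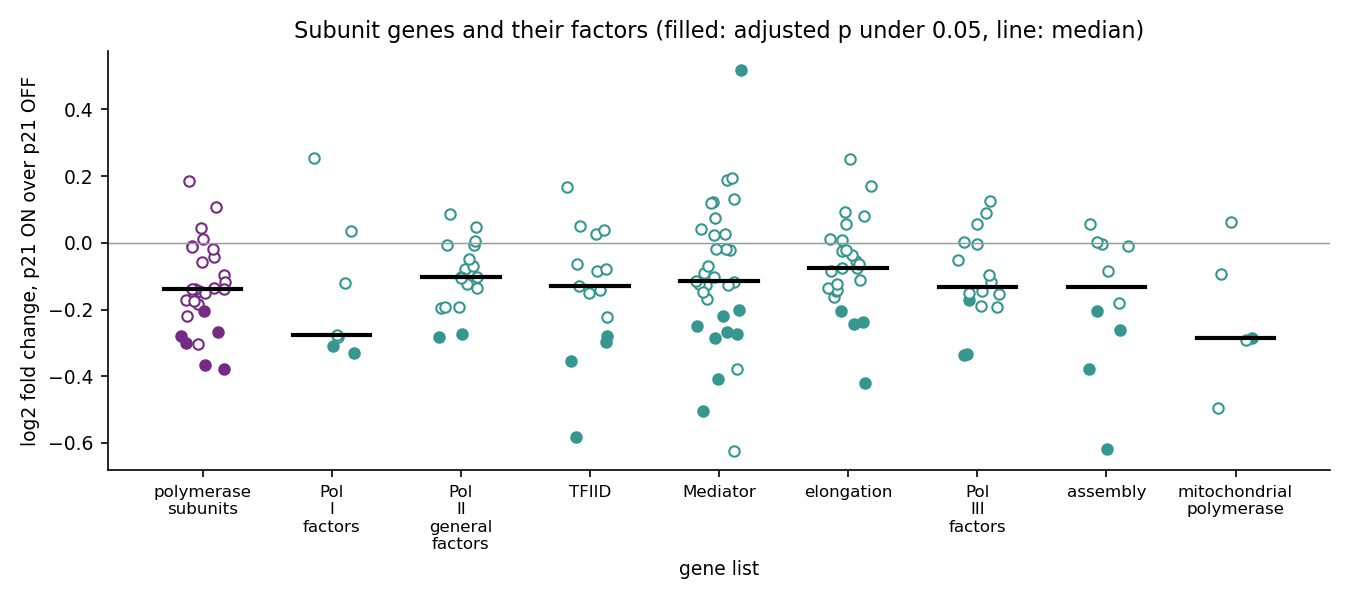
Each point is the log2 fold change of a gene, p21 ON over p21 OFF, in the polymerase subunits and in 8 lists of factors, filled where the adjusted p from limma was under 0.05, with the list median as a line. All 9 medians lie below 0, between -0.28 and -0.075, and the single filled point above 0 is MED12L.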

How the data were processed

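RNA was measured by stranded mRNA sequencing in 6 SaOS-2 libraries. The authors aligned single-end reads to the hg19 genome using STAR, took gene counts from HTSeq and scaled these by DESeq2 (versions and the strand setting are not given in the sources used here). The deposited normalized counts are a signal per gene and library. Dividing by 1 step per library gave whole numbers for 100% of values (tolerance 0.01), that is 12795490 to 21975045 whole reads. No value column lacked a sample.

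The 13255 genes averaging 10 or more normalized counts were tested on log2(normalized count + 1) by limma 3.58.1 (lmFit, eBayes trend, R 4.3.3), two-sided, with Benjamini-Hochberg adjustment. This scale understates changes of weakly expressed genes. A list is given by counts and its median. Ratios were compared with exact permutation tests over libraries. Alternatives were edgeR 4.0.16 and DESeq2 1.42.0 on the recovered reads, other scalings, pseudocounts of 0.1 and 10, filters, an adjusted p under 0.01, a replicate block, length and GC trends (lowess, span 0.3) and each library left out. The fits were also run on simulated data with 200 changed genes, which carried no lean with transcript length. Whether the calls hold under such a lean was not tested there.

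By rule, values in every library were given for CDKN1A, the subunits past the threshold, the largest subunits, POLR3G and POLR3GL, and each factor list was named by the 3 lowest adjusted p past the threshold and the 2 largest changes in each direction. Outside the rule, and after their values were seen, every library was also given for POLR1D, POLR2D, POLR2J3, RRN3, MAF1, TAF5, GPN3 and TFAM. UBTF, POLRMT and some genes whose call differed in an alternative were named outside the rule as well. The values of 1 subunit gene and 1 marker are not reported here, though both are counted. Members and lists were chosen with earlier results of these data known. Positions, overlaps and lengths of canonical transcripts were read from GENCODE 44 as lifted to GRCh37, which is the hg19 build. Of 23228 rows 21284 were matched, 2147 by an older symbol, and lengths and GC content were known for 95.1% of the genes tested. Promoter letters are from the GRCh37 genome. Exons were left out of the printed letters and not of the motif search.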

Additional observations from a re-analysis of the deposited data

How the results depend on the processing

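All 6 falls among the subunit genes kept their direction in each alternative run, and POLR1C kept its call in each, while the numbers called depended on libraries and thresholds. Where a value changed, the cause was not tested, except that a lower threshold gives fewer calls by construction. Depth limits POLR2J2, POLR2J3 and POLR2J4, whose counts were lowest, and 3 libraries a group limit all small changes.

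An adjusted p under 0.01 left 616 genes higher and 882 lower, 2 subunit genes lower (1 of those in all 3 enzymes, 0 of Pol II only) and 12 factors lower. Without both libraries numbered 1 the numbers were 906 and 1087, 2 subunit genes lower (0 of those in all 3 enzymes, 1 of Pol II only) and 2 factors higher and 15 lower. With the length trend taken out 1 subunit gene was higher, of Pol II only, with 2 of Pol I only, 1 of Pol II only and 1 of the subunits under other symbols lower, and 2 factors higher. Scaling by library size alone gave 1 lower gene of Pol II only, 6 factors higher and 16 lower, and shifted the median of all genes to 0.05. Counting shared subunits with each enzyme gave 4, 5 and 4 lower for Pol I, Pol II and Pol III. Factors called higher numbered 2 by edgeR with DESeq2 size factors and 3 with the GC trend taken out.

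With the replicate number as a block 1407 genes were higher and 1513 lower, with 6 subunit genes lower and 3 factors higher. Same-numbered libraries did not deviate together (correlations of -0.057, -0.025 and -0.048), so the numbers were not taken as pairs. The block changed no call among the subunits.

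Leaving out single libraries gave 695 to 1486 genes higher and 887 to 1660 lower, 1 to 7 subunit genes lower, 0 to 3 of those in all 3 enzymes, 0 to 2 of Pol II only, 0 to 1 of Pol III only and 0 to 1 under other symbols, and 1 to 4 factors higher and 12 to 28 lower.

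The signs of uncalled genes changed as follows. POLR1A had -0.0061 and -0.0073 by edgeR with TMM and with DESeq2 size factors, -0.18 with the length trend taken out and -0.12 without both libraries numbered 1. With the length trend taken out POLR1D had 0.054, POLR2G 0.016 and CRCP 0.012. Under scaling by library size POLR2A had 0.00026, POLR3A 0.034, POLR3C 0.033, POLR3G 0.025 and CRCP 0.035. Without both libraries numbered 1 POLR3C had 0.026, POLR3G 0.051 and CRCP 0.027, and POLR3G had 0.045 with the GC trend taken out. With single libraries left out the log2 fold change ran from -0.13 to 0.10 for POLR1A, -0.13 to 0.0060 for POLR2A, -0.038 to 0.15 for POLR2I, -0.53 to 0.012 for POLR2J3, -0.047 to 0.023 for POLR3A, -0.062 to 0.019 for POLR3C, -0.076 to 0.036 for POLR3G and -0.036 to 0.015 for CRCP.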

Other observations

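The polymerase that transcribes the mitochondrial genome is a separate enzyme, and its genes were described apart from the nuclear ones. Of its 5 genes tested 1 was called lower and none higher, where 12.7% and 10.5% of all genes tested were. The median log2 fold change of the 5 was -0.28, and -0.17 with the length trend taken out. TFAM, which packages mitochondrial DNA and starts its transcription, had 568, 548 and 455 normalized counts with p21 OFF and 438, 429 and 417 with p21 ON. The groups did not overlap, and p21 OFF replicate 3 lay nearest to the p21 ON libraries. Its log2 fold change was -0.28 (limma, standard error 0.087 and adjusted p 0.0251), and it was called in 1 of the 6 fits that left out a single library, the one without p21 OFF replicate 3. Over those 6 the log2 fold change ran from -0.38 to -0.22, with limma adjusted p from 0.0532 to 0.0968 in the other 5. POLRMT, the enzyme itself, had -0.094 (limma adjusted p = 0.469) and was named after its value was seen.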
